A study of Rattus norvegicus with 30 samples.

Results

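Cell cycle and DNA replication genes were followed on 30 expression arrays of oesophageal epithelium from male rats of the Sprague-Dawley strain. The genes were taken from a fixed list of 50 symbols, 24 of them acting in S phase or at its entry and 26 in mitosis. Of these, 46 were measured among 14218 genes, 21 of the S-phase group and 25 of the mitotic group. Cdc6, Gins2, Rrm2 and Tpx2 had no probe set that named them alone and were not analysed here. No filter on low values was applied, so all 46 entered each test.

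The assay gave NMBA (N-nitrosomethylbenzylamine, a carcinogen of the rodent oesophagus) as 4 doses of 2 mg/kg from week 5 on a diet started at 4 weeks of age. The groups were zinc-deficient (ZD) rats given an oligonucleotide against the microRNA miR-31 (antimiR) for 20 weeks (n = 5) or 5 weeks (n = 5), ZD rats without antimiR (n = 5), zinc-sufficient (ZS) rats without antimiR (n = 5), ZD miR-31 knockout rats (n = 6) and ZS miR-31 knockout rats (n = 4). The antimiR schedule opened with 20 mg/kg as a loading dose. Then came 9 maintenance doses, each of 6 mg/kg, within 5 weeks. Rats of the 20-week schedule received 20 additional doses. Each array has a number of its own and is taken as 1 rat, which the labels do not state outright, so p-values measure the spread between these arrays, and their number limits the precision. In the unedited experiment ZD rats ate freely and ZS rats were pair-fed to them. The labels do not repeat this for the knockout rats. The knockout was made by CRISPR in the same strain and carried through the same NMBA assay, and its wild-type littermates were not analysed here. Rats were sampled either shortly after the last antimiR dose or 15 weeks after the first NMBA dose, so the labels do not settle whether the 5-week antimiR group was sampled at the same age, or after NMBA as the other groups were.

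A dividing cell first builds D-type and E-type cyclins, which with their kinases release E2F transcription factors from the retinoblastoma protein. E2F targets then license origins, copy the DNA and supply nucleotides. Later the cyclin B kinase Cdk1, the Aurora and Polo kinases and the spindle checkpoint drive and time the separation of chromosomes. Many of their genes are controlled by the DREAM complex, MYBL2 and FOXM1 through the CHR elements of their promoters. CCAAT elements are also found in many of these promoters. In the oesophagus division is largely confined to the basal and parabasal cells, and suprabasal cells differentiate. In tissue RNA, fewer dividing cells and less RNA per dividing cell cannot be told apart.

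The microRNA that was targeted is shown first because 4 of the 6 groups carry its inhibitor or its deletion. Its mature form in RefSeq (GRCr8), with the seed at bases 2 to 8 in capitals, lies on chromosome 5 from 108714906 to 108714927 on the minus strand.
rno-miR-31a-5p: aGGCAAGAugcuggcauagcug

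Promoters are shown because S-phase and mitotic members are read apart here and their windows hold different letters, which is a description with no test. RefSeq (GRCr8) windows from 250 bases before to 50 after the start were found for 37 measured members, 16 S-phase and 21 mitotic. The E2F letters searched were TTTGGCGC, TTTCCCGC, TTTGCCGC and TTTCGCGC, the CHR letters TTTGAA and TTCGAA, and the last motif CCAAT, each on both strands. Matches may overlap, as the E2F matches on opposite strands of Mcm6 do. E2F letters were in 9 of 16 S-phase windows (56.2%) and 1 of 21 mitotic windows (4.76%), against 3.64% of the windows of measured genes. CHR letters were in 15 of 21 mitotic windows (71.4%) and 3 of 16 S-phase windows (18.8%), against 14% of measured genes. CCAAT was in 16 of 21 mitotic windows (76.2%) and 8 of 16 S-phase windows (50%), against 37.3%. The windows chosen are those of the centromere gene Cenpf and the spindle gene Nusap1, the members that differed most between 20 and 5 weeks of antimiR, the kinesin Kif11, the mitotic member that passed a test, whose window holds no CHR letters, and the S-phase genes Mcm6 and Lig1. Capitals mark the matches.
Cenpf, chr13:103760837-103761136, minus strand: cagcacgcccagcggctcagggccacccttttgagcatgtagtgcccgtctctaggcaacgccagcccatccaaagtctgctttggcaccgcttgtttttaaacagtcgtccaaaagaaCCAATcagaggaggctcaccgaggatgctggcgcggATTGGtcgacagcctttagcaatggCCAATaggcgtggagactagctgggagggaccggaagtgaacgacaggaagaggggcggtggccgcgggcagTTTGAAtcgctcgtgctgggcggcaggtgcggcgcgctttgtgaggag
Nusap1, chr3:127057045-127057344, plus strand: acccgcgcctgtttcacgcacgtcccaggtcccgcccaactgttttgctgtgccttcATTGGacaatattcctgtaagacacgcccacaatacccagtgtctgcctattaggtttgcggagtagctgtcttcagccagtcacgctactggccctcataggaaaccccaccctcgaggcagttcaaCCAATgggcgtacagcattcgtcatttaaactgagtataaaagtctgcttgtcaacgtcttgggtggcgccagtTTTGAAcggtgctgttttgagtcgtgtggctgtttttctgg
Kif11, chr1:244536617-244536916, plus strand: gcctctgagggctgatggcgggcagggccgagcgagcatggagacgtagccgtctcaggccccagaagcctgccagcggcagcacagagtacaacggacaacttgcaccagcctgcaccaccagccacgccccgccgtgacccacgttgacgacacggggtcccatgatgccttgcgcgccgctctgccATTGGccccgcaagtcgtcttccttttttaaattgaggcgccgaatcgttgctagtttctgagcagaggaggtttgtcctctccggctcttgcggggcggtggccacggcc
Mcm6, chr13:42404303-42404602, minus strand: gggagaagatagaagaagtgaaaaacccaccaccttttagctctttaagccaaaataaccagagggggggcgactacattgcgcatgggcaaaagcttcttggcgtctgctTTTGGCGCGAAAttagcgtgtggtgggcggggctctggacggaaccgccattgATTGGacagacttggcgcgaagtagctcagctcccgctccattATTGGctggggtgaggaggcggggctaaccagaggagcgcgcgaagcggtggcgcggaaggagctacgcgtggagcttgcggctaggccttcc
Lig1, chr1:83242920-83243219, plus strand: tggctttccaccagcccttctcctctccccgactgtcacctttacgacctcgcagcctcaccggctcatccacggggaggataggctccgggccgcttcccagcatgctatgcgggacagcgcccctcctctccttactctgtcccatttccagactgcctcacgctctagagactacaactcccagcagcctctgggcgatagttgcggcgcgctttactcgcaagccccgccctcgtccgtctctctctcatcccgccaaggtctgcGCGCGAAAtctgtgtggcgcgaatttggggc

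The deposited values are log2 expression values, and every change below is a log2 difference given beside its model-based standard error (SE). The words rose and fell are kept for genes whose Benjamini-Hochberg adjusted p was under 0.05 in limma, a linear model fitted to all 14218 genes. Array medians were 5.37 to 5.45 in unedited rats and 5.81 to 5.93 in knockout rats. Knockout and unedited rats were therefore not set against each other in a test on the same diet, and genotype and experiment cannot be told apart. No probe set carried the name Mir31, so the knockout could not be checked on these arrays. The suprabasal keratin Krt13 lay between 13.90 and 14.10 and the basal keratin Krt5 between 11.91 and 13.17 on all 30 arrays. The mean of 11 suprabasal markers ranged from 11.12 to 12.58 and that of 9 basal markers from 10.21 to 11.42. The mean of 11 skeletal muscle markers ranged from 5.24 on array 15 to 9.89 on array 36, and its part in the results was not tested.

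A few arrays stood apart for nearly every member, and the results below rest on groups that hold them. In untreated ZD rats, array 14 was the highest and array 15 the lowest of the 5 for all 25 mitotic members, whereas over all genes array 14 was the highest for 23.4% and array 15 the lowest for 25.6%. In 5-week antimiR rats, array 9 was the highest for all 25 mitotic members and array 6 the lowest for 23. Array 3 was the lowest of the 20-week antimiR group for 24 mitotic members. Array 38, titled LF38, was the highest ZD knockout array for all 25 mitotic and 20 of 21 S-phase members, against 25% of all genes. The median standard deviation (SD) of mitotic members between rats was 0.39 with 20 weeks of antimiR, 0.89 with 5 weeks, 0.90 in untreated ZD rats and 0.23 in untreated ZS rats, where the figure over all genes was 0.14 to 0.16. It was 0.55 in ZD knockout rats and 0.33 in ZS knockout rats.

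**Figure D1:**
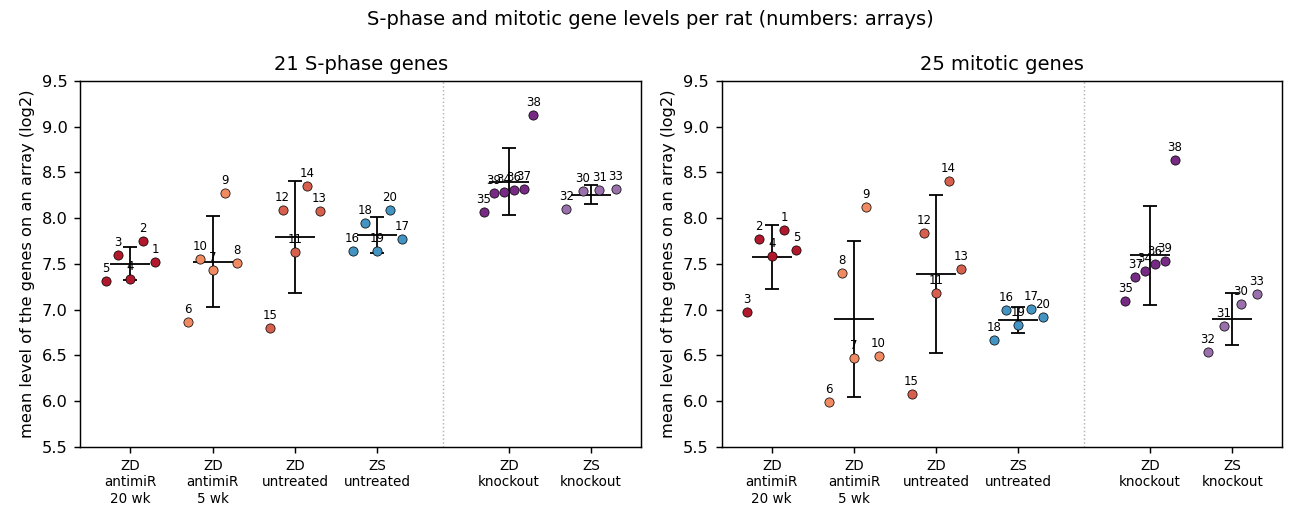
Mean log2 level of the 21 S-phase genes (left) and the 25 mitotic genes (right) on each array, with the group mean and SD as bars. Points are rats, numbered by array, and the dotted line parts unedited from knockout rats. Array 38 lies at 9.13 and 8.64, above the other ZD knockout arrays, and arrays 14 and 15 mark the ends of the untreated ZD group.

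In rats without antimiR, Ccnd2, the gene of cyclin D2, was lower on the zinc-deficient diet, and mitotic genes had values above 0 that were widely spread between rats. Of the 46 members, 1 fell and none rose, against 13.9% of all genes that passed in either direction. Ccnd2 measured 8.86, 9.59, 9.04, 8.70 and 8.93 on ZD arrays 11 to 15, against 10.02, 10.22, 10.44, 10.15 and 10.39 on ZS arrays 16 to 20. The groups did not overlap, as for 5.45% of all genes with ZD below ZS, and Ccnd2 fell by 1.22 (SE 0.24, adjusted p = 0.00159). Smooth muscle markers moved with it: 12 of the 14 fell, where 6.95% of all genes fell. Their mean lay between 6.86 and 7.81 on ZD arrays and between 8.44 and 9.66 on ZS arrays. With that mean as a covariate, which itself differs with diet, Ccnd2 stood at -0.94 (adjusted p = 0.159).

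**Figure D2:**
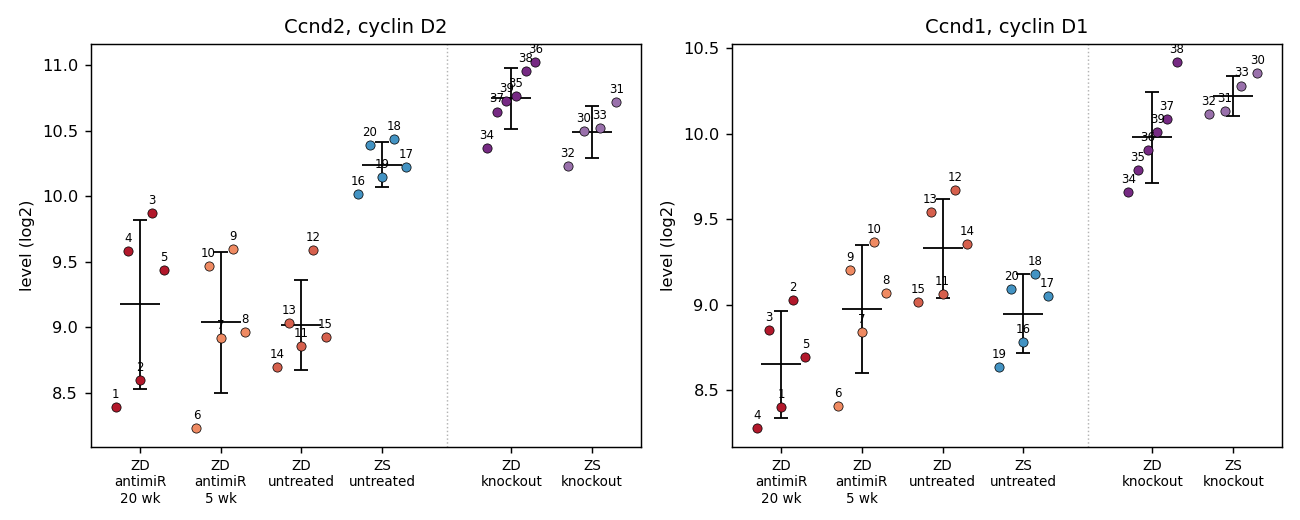
Log2 level of Ccnd2 (left) and Ccnd1 (right) on each array, with the group mean and SD as bars and points numbered by array. In unedited rats the highest ZD value of Ccnd2 was 9.87 and the lowest ZS value 10.02, while the diets overlapped in knockout rats, whose arrays have higher medians.

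Ccnd1, the other D-type cyclin gene of the list, had a value above 0. It measured 9.06, 9.67, 9.54, 9.35 and 9.02 on ZD arrays, against 8.79, 9.05, 9.18, 8.63 and 9.09 on ZS arrays. The ranges overlapped and the difference of 0.38 did not pass (SE 0.17, adjusted p = 0.139). With the mean of its probe sets it passed at 0.56 (adjusted p = 0.0458). In the fit that holds the smooth muscle mean it stood at 0.01 (adjusted p = 0.986). The DNA ligase gene Lig1, which joins nascent strands, measured 7.64, 7.83, 7.89, 8.15 and 7.24 on ZD arrays, against 8.02, 7.92, 8.08, 7.93 and 8.19 on ZS arrays, a difference of -0.28 (SE 0.14, adjusted p = 0.193).

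Over the 21 S-phase members the median change was 0.02, against 0.00 over all genes, with 11 above 0. By role the medians were 0.17 for G1 to S control, -0.02 for licensing and helicase and 0.17 for nucleotide supply. Of the replication fork genes, Rfc4, Prim1 and Fen1 had a higher mean on ZD than on ZS arrays, and Pcna, Pole and Lig1 a lower one. The sliding clamp gene Pcna measured 10.54, 11.08, 11.13, 11.36 and 9.73 on ZD arrays, against 10.60, 10.81, 10.86, 10.64 and 11.14 on ZS arrays. The helicase gene Mcm2 measured 8.22, 8.88, 8.89, 9.08 and 7.10 on ZD arrays, against 8.27, 8.47, 8.69, 8.21 and 8.67 on ZS arrays. In both genes the ZS range lay inside the ZD range.

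All 25 mitotic members had a change above 0, where 50.8% of all genes did, with a median of 0.47 and a range of 0.20 to 1.02, and none of the 25 passed in limma. An unadjusted p under 0.05 was found for 2 of them and for 3988 of 14218 genes. The median was 0.79 for the 4 checkpoint genes, 0.58 for the 10 kinase, cyclin and exit genes and 0.39 for the 9 spindle and chromosome genes. The checkpoint gene Mad2l1 had the smallest p. It measured 6.53, 7.82, 7.12, 8.21 and 5.44 on ZD arrays, against 5.86, 6.19, 6.09, 5.87 and 6.04 on ZS arrays, a difference of 1.02 (SE 0.39, adjusted p = 0.0817). Array 15 alone lay below the ZS range. The Aurora A kinase gene Aurka measured 5.93, 6.84, 6.14, 7.28 and 4.95 on ZD arrays, against 5.74, 5.42, 5.30, 5.78 and 5.33 on ZS arrays, a difference of 0.71 (SE 0.33, adjusted p = 0.151). Ube2c, which encodes the ubiquitin enzyme that works with the anaphase complex, differed by 0.82 (SE 0.41, adjusted p = 0.196).

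These calls turned on array 15. Without it, 7 mitotic members passed, namely Aurka (1.04), Birc5 (1.03), Bub1 (1.04), Ccna2 (1.39), Mad2l1 (1.41), Ttk (1.38) and Ube2c (1.19), and the cyclin E1 gene Ccne1 passed at 0.85 beside Ccnd2. Over all genes 2425 of 14218 passed without array 15, against 1977 with it. Array 15 was the lowest ZD array for all 25 mitotic members, so leaving it out had to raise each of their changes. The median change of the mitotic members was 0.75 without array 15 and 0.23 without array 14. The proliferation marker Mki67 measured 8.71, 9.07, 8.80, 9.73 and 7.18 on ZD arrays, against 8.43, 8.62, 7.96, 8.50 and 8.53 on ZS arrays. Cdk1, the kinase of mitotic entry, measured 8.53, 9.40, 9.00, 9.91 and 7.01 on ZD arrays, against 8.31, 8.47, 8.00, 8.13 and 8.56 on ZS arrays. Array 15 lay below every ZS array in both genes, and the other 4 ZD arrays lay above every ZS array in Mki67 and, with array 11 as the exception, in Cdk1.

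AntimiR for 5 weeks went with lower values of nearly all members than in untreated ZD rats, none of them past the test. By limma 0% of all genes passed here, with 0.0640 as the lowest adjusted p, although 1021 of 14218 had an unadjusted p under 0.05. All 25 mitotic members and 20 of 21 S-phase members were below 0, with medians of -0.51 and -0.26, against 0.00 for all genes, and 1 S-phase and 0 mitotic members had an unadjusted p under 0.05. The hyaluronan receptor gene Hmmr, which also acts at the spindle, measured 4.33, 4.41, 5.42, 6.35 and 4.73 on 5-week arrays 6 to 10, against 5.48, 6.20, 5.87, 7.03 and 4.43 on untreated ZD arrays. The difference was -0.75 (SE 0.38, adjusted p = 0.705) and the groups overlapped. The transcription factor gene Mybl2 differed by -0.25 (SE 0.15, adjusted p = 0.756) and Ube2c by -0.67 (SE 0.41, adjusted p = 0.772).

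Of the S-phase members, Ccnd1 had the smallest p. It measured 8.41, 8.84, 9.07, 9.20 and 9.37 on 5-week arrays, against the untreated ZD values above, a difference of -0.35 (SE 0.17, adjusted p = 0.692). Lig1 differed by -0.23 (SE 0.14, adjusted p = 0.767) and the clamp loader gene Rfc4 by -0.29 (SE 0.19, adjusted p = 0.785). The mitotic median was -0.25 without array 6 and -0.86 without array 15, and so moved with single rats. Mki67 measured 6.78, 7.70, 8.93, 9.76 and 7.77 and Cdk1 6.98, 7.67, 8.74, 9.73 and 7.70 on the 5-week arrays.

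After 20 weeks of antimiR most S-phase members were below 0 and most mitotic members slightly above 0 relative to untreated ZD rats. Of all genes 0.647% passed against untreated ZD, and none of the 46 members did in limma, where 1 S-phase and 0 mitotic members had an unadjusted p under 0.05, as did 2109 of 14218 genes. Of the S-phase members 19 of 21 were below 0 (median -0.31, where 48.6% of all genes were above 0). Ccnd1 was nearest to the threshold: it measured 8.40, 9.03, 8.85, 8.28 and 8.70 on 20-week arrays 1 to 5, against 9.06, 9.67, 9.54, 9.35 and 9.02 on untreated ZD arrays. The ranges met at their edges, and the difference of -0.68 had an adjusted p of 0.0568 (SE 0.17). Its other 2 probe sets gave -0.77 and -0.76. It passed with array weights and without array 2, 11 or 15. Ccne1 differed by -0.54 (SE 0.28, adjusted p = 0.380) and Rfc4 by -0.35 (SE 0.19, adjusted p = 0.394).

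All 7 licensing and helicase genes were below 0 here, from -0.61 to -0.30. Mcm2 measured 8.08, 8.42, 8.12, 7.65 and 7.57 and Pcna 10.54, 10.70, 10.52, 10.34 and 10.10 on 20-week arrays, inside the untreated ZD ranges of 7.10 to 9.08 and 9.73 to 11.36. Of the mitotic members 24 of 25 were above 0, the exception being Mad2l1 at -0.29, with a median of 0.10 that was -0.13 without array 15. These signs depend on the probe set chosen. In this comparison 15 of the 46 members had 21 further probe sets, and 13 of the 21 had the sign of the one used. Cenpf, which encodes a kinetochore protein, measured 7.95, 7.56, 7.09, 7.80 and 8.04 on 20-week arrays, against 7.01, 7.38, 7.05, 7.89 and 5.91 on untreated ZD arrays, a difference of 0.64 (SE 0.36, adjusted p = 0.407). The spindle gene Nusap1 differed by 0.54 (SE 0.40, adjusted p = 0.556) and the checkpoint gene Bub1b by 0.42 (SE 0.37, adjusted p = 0.636). Macrophage markers moved in the same comparison: 11 of 12 were below 0, none passed in limma and 7 had an unadjusted p under 0.05, with a mean of 5.63 to 5.77 on 20-week arrays and 6.21 to 6.43 on untreated ZD arrays, and their part in the result was not tested.

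Between 20 and 5 weeks of antimiR every mitotic member was above 0 without passing the test. Of all genes 0.0211% passed, and no member did. The mitotic median was 0.67, and 10 had an unadjusted p under 0.05, where 868 of 14218 genes did. Cenpf measured 7.95, 7.56, 7.09, 7.80 and 8.04 on 20-week arrays, against 5.66, 6.07, 7.25, 7.90 and 6.07 on 5-week arrays. The difference was 1.10 (SE 0.36, adjusted p = 0.553). Nusap1 differed by 1.07 (SE 0.40, adjusted p = 0.641), measured at 8.81, 8.51, 7.70, 8.67 and 8.64 on 20-week arrays, against 6.17, 7.06, 8.29, 8.82 and 6.60 on 5-week arrays. Arrays 6, 7 and 10 lay below every 20-week array in both genes, whereas arrays 8 and 9 did not. Bub1b differed by 0.93 (SE 0.37, adjusted p = 0.716). The S-phase median was -0.04, and it was -0.22 without array 6 and 0.17 without array 9. Ccnd1 differed by -0.33 (adjusted p = 0.826), Ccne1 by -0.33 (adjusted p = 0.925) and Tyms by -0.21 (adjusted p = 0.961).

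Both antimiR groups had lower Ccnd2 than untreated ZS rats, and these comparisons share the ZS arrays with the diet comparison. After 20 weeks 3.63% of all genes passed, and Ccnd2 fell by 1.06 (SE 0.24, adjusted p = 0.0141), measured at 8.39, 8.60, 9.87, 9.59 and 9.44 on 20-week arrays, against the ZS values above. Ccnd2 and Lig1 lay below every ZS array, as did 2.98% of all genes. For Ccnd2 the adjusted p was 0.0586 without array 1, 0.0640 without array 2 and 0.0742 with only these groups in the fit. After 5 weeks 9.08% of all genes passed, and Ccnd2 fell by 1.20 (SE 0.24, adjusted p = 0.00261), measured at 8.23, 8.92, 8.97, 9.60 and 9.47 and below every ZS array, as were 3.69% of all genes. Lig1 also fell, by 0.52 (SE 0.14, adjusted p = 0.0208), with 7.30, 7.44, 7.47, 7.94 and 7.42 on 5-week arrays, against 8.02, 7.92, 8.08, 7.93 and 8.19 on ZS arrays. It lost its pass without array 8 (adjusted p = 0.0508) or array 20 (adjusted p = 0.0554). After 20 weeks Lig1 measured 7.54, 7.70, 7.72, 7.56 and 7.60, with a difference of -0.41 (SE 0.14, adjusted p = 0.106, or 0.0315 with only these groups in the fit).

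Smooth muscle markers were lower here too. After 5 weeks 4 of 14 fell, where 4.48% of all genes did. After 20 weeks none of 14 fell in limma, where 1.8% of all genes did. At 20 weeks 11 had an unadjusted p under 0.05, as did 2685 of 14218 genes in either direction. The means of these markers were 6.99 to 8.80 after 5 weeks and 6.93 to 9.02 after 20 weeks, against 8.44 to 9.66 on ZS arrays. With their mean as a covariate Ccnd2 stood at -1.02 (adjusted p = 0.0539) after 5 weeks and -0.92 (adjusted p = 0.0907) after 20 weeks, and Lig1 at -0.59 (adjusted p = 0.0592) after 5 weeks. The polymerase gene Pole differed by -0.50 (SE 0.22, adjusted p = 0.151) after 5 weeks, and the helicase gene Mcm3 by -0.53 (SE 0.26, adjusted p = 0.258) after 20 weeks.

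After 20 weeks of antimiR all 25 mitotic members were above 0 relative to ZS rats (median 0.71). Of these, 9 had an unadjusted p under 0.05, where 2685 of 14218 genes did, and none passed in limma. Mad2l1 and Ttk, which encodes a checkpoint kinase, lay above the ZS range on every 20-week array, where 3.02% of all genes did. Ttk measured 7.39, 7.28, 6.30, 6.96 and 6.95 on 20-week arrays, against 6.19, 6.22, 5.65, 5.78 and 6.09 on ZS arrays, a difference of 0.99 (SE 0.46, adjusted p = 0.238). That SE draws on the spread of all 6 groups. In a limma fit of only these groups Ttk passed (SE 0.20, adjusted p = 0.0447), as the 1 mitotic member to do so, where 140 of 14218 genes passed. Cenpf differed by 0.85 (SE 0.36, adjusted p = 0.191), Aurka by 0.78 (SE 0.33, adjusted p = 0.192) and Ube2c by 0.91 (SE 0.41, adjusted p = 0.231). After 5 weeks the mitotic median against ZS was -0.03, with 12 of 25 above 0. Mad2l1 differed by 0.55 (adjusted p = 0.428), Aurka by 0.33 (adjusted p = 0.597) and Top2a, the topoisomerase that untangles chromosomes, by -0.34 (adjusted p = 0.684).

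**Figure D3:**
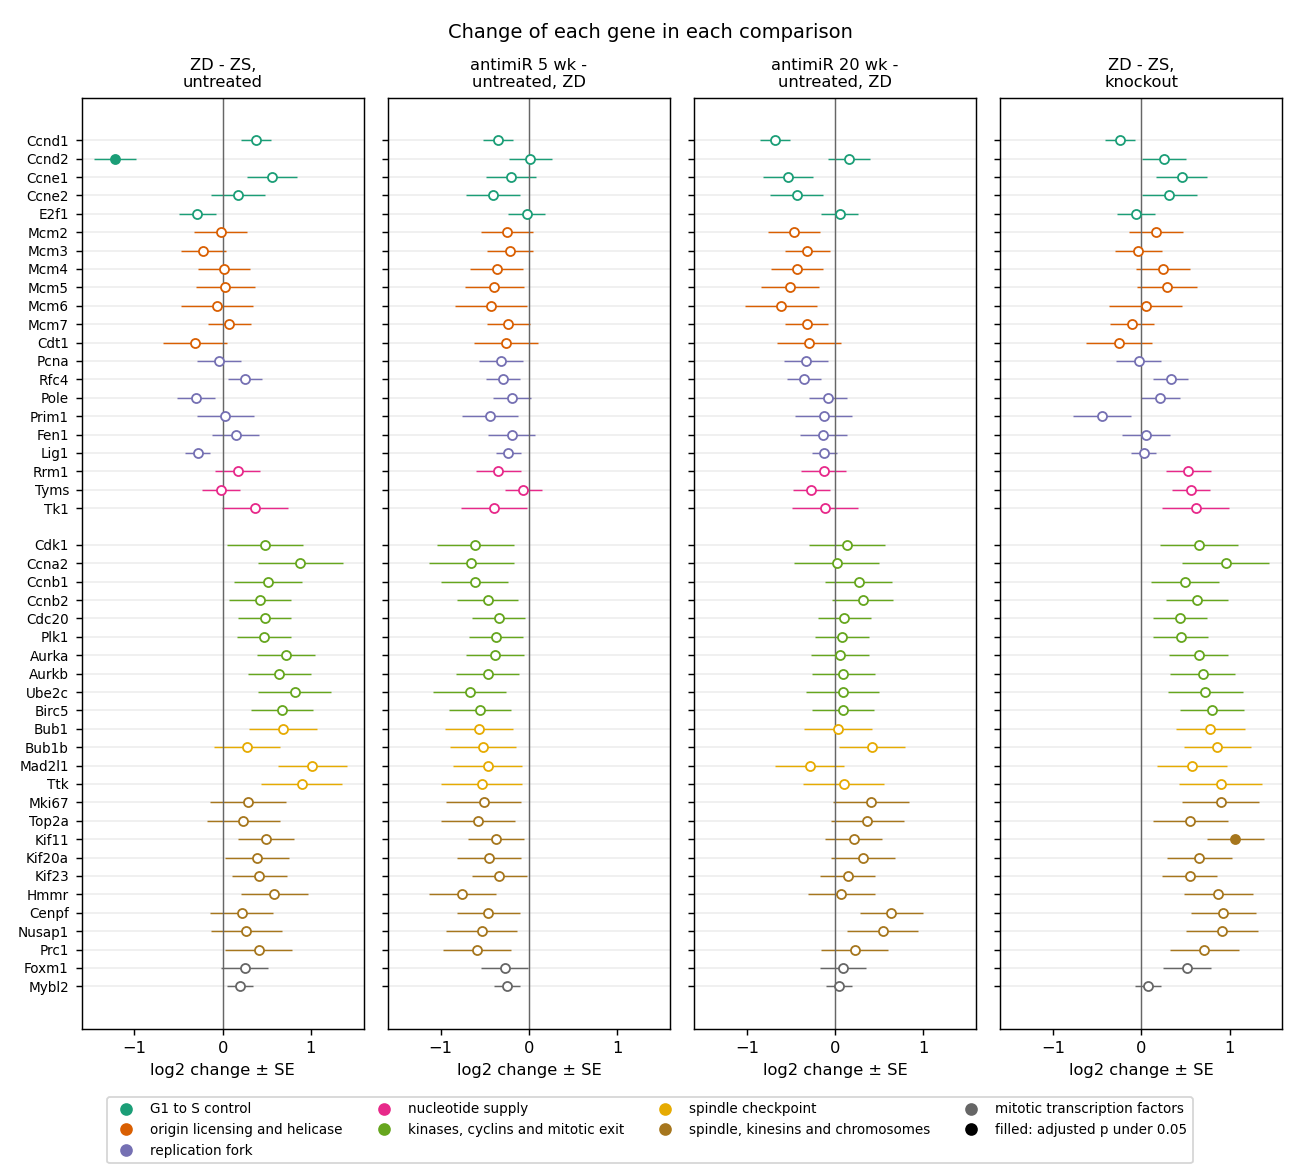
Log2 change of each measured gene with its SE in 4 comparisons, coloured by role, with filled points where the limma adjusted p was under 0.05. The mitotic genes lie to the right of 0 on ZD in unedited and knockout rats and to the left after 5 weeks of antimiR, and only Ccnd2 in unedited rats and Kif11 in knockout rats are filled.

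The mitotic mean minus the S-phase mean was taken on each array. This difference averaged 0.07 (SD 0.41, range -0.62 to 0.35) with 20 weeks of antimiR, -0.63 (SD 0.47, range -1.06 to -0.10) with 5 weeks, -0.40 (SD 0.31, range -0.72 to 0.06) in untreated ZD rats and -0.94 (SD 0.28, range -1.28 to -0.65) in untreated ZS rats. In the 20-week group array 3 was lowest, and each array lay above all ZS arrays. In knockout rats it averaged -0.81 (SD 0.18, range -0.98 to -0.48) on ZD, -0.87 without array 38, and -1.36 (SD 0.20, range -1.57 to -1.15) on ZS. The diets did not overlap in knockout rats, with or without array 38. These means are a description of the lists and carry no test.

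**Figure D4:**
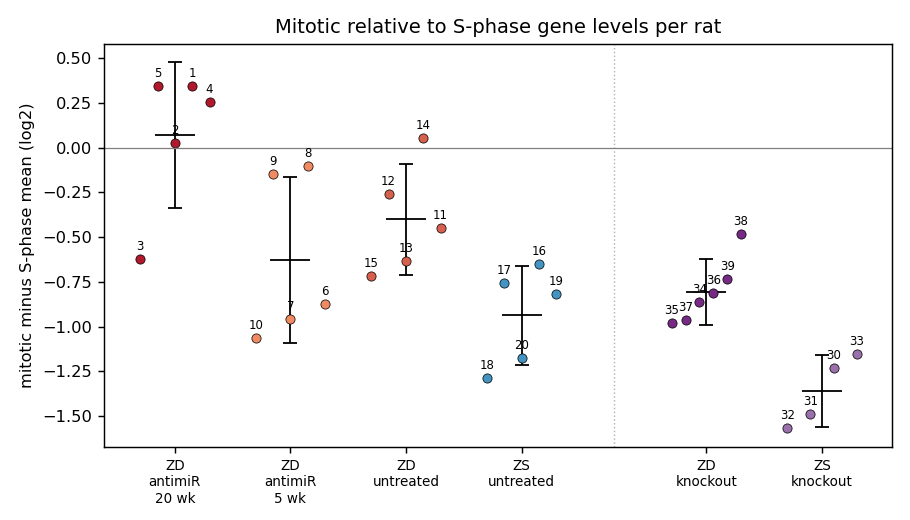
Mean of the 25 mitotic genes minus mean of the 21 S-phase genes (log2) on each array, with the group mean and SD as bars. The ZD knockout arrays, from -0.98 to -0.48, lie above the ZS knockout arrays, from -1.57 to -1.15, and 4 of the 5 antimiR arrays at 20 weeks lie at or above 0, with array 3 at -0.62.

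In miR-31 knockout rats all mitotic members had changes above 0 on the deficient diet, and 1 of them, Kif11, the gene of the kinesin that pushes spindle poles apart, passed. Of all genes 21.4% passed in either direction, with 9.47% up. Kif11 had a lowest, median and highest value of 6.73, 7.08 and 8.27 on ZD arrays, against 6.34, 6.27, 5.67 and 6.40 on ZS arrays 30 to 33. The groups did not overlap, and Kif11 rose by 1.07 (SE 0.33, adjusted p = 0.0207). Without array 38 the difference was 0.86 (adjusted p = 0.0540), and without array 32 it was 0.90 (adjusted p = 0.104). A second probe set of the gene gave 0.51 (SE 0.29).

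All 25 mitotic members were above 0 with a median of 0.69, and without array 38 it was 24 of 25 with a median of 0.49 and none passing in limma, where 1 had an unadjusted p under 0.05, as did 4593 of 14218 genes, and 18.7% of all genes passed. Aurka, Birc5, Bub1b, Ttk, Kif11, Hmmr, Cenpf and Nusap1 had every ZD array above every ZS array, with and without array 38. Of all genes 7.18% did so, or 8.53% without array 38. Cenpf measured 6.99, 7.13 and 8.46 (lowest, median and highest) on ZD arrays, against 6.77, 6.29, 5.99 and 6.70 on ZS arrays, a difference of 0.93 (SE 0.37, adjusted p = 0.0680). Bub1b measured 6.27, 6.48 and 7.89 on ZD arrays, against 5.92, 5.79, 5.52 and 6.10 on ZS arrays, a difference of 0.86 (SE 0.38, adjusted p = 0.104). Without array 38 the differences were 0.71 and 0.62. Mki67 measured 8.34, 8.83 and 10.14 on ZD arrays, against 8.45, 7.70, 7.74 and 8.46 on ZS arrays, and Cdk1 8.50, 8.85 and 10.27, against 8.52, 8.31, 8.06 and 8.70. The highest value is array 38 in each of these genes.

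The median change of the S-phase members was 0.16, or 0.01 without array 38, and none passed in limma while 2 had an unadjusted p under 0.05, as did 4899 of 14218 genes. Tyms and Rrm1, which supply thymidylate and deoxynucleotides, had the smallest p. Tyms measured 6.12, 6.56 and 7.25 on ZD arrays, against 6.11, 6.12, 5.67 and 6.25 on ZS arrays, a difference of 0.56 (SE 0.22, adjusted p = 0.0623), or 0.43 without array 38. Rrm1 measured 8.25, 8.48 and 9.34 on ZD arrays, against 8.07, 8.07, 7.99 and 8.06 on ZS arrays, a difference of 0.53 (SE 0.26, adjusted p = 0.145). Rfc4 differed by 0.33 (SE 0.20, adjusted p = 0.237). Pcna measured 10.91, 11.11 and 11.89 on ZD arrays, against 11.16, 11.32, 11.19 and 11.28 on ZS arrays, and Mcm2 8.93, 9.14 and 10.01, against 9.14, 9.18, 9.00 and 9.03. Rrm1 lay above every ZS array on each ZD array, with and without array 38. Of all genes 7.18% did so, or 8.53% without array 38. Without array 38, Ccnd1, E2f1 and Mcm7 lay below every ZS array, where 8.91% of all genes did.

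**Figure D5:**
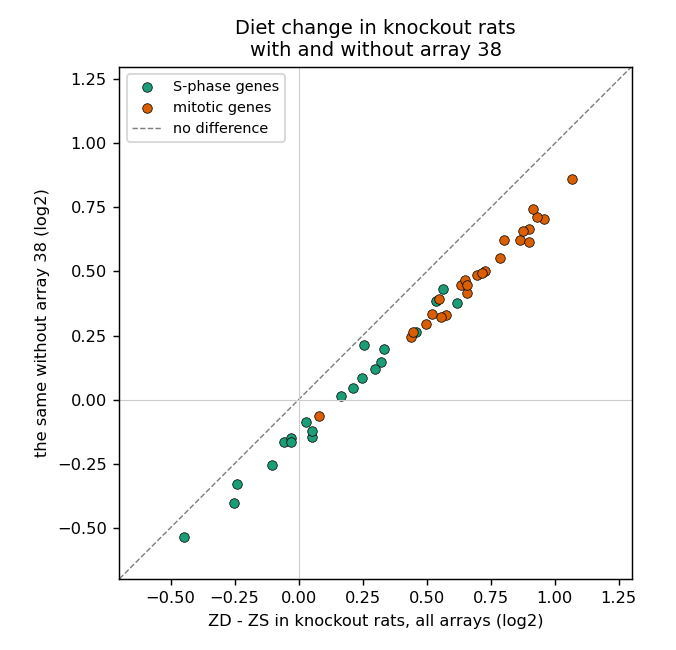
Log2 change of each gene between ZD and ZS knockout rats with all arrays (x axis) and without array 38 (y axis), with the line of equal values dashed. All points lie below the line, and the mitotic genes keep values above 0 with 1 exception near 0.

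Non-epithelial markers moved in this comparison too. Of 12 macrophage markers 7 fell, of 14 smooth muscle markers 6, of 10 T and B cell markers 3 and of 9 fibroblast markers 4. Over all genes 12% fell in limma. The macrophage mean lay between 6.22 and 6.92 on ZD arrays and between 6.62 and 8.63 on ZS arrays, and the smooth muscle mean between 8.75 and 10.14 on ZD arrays and between 9.96 and 10.79 on ZS arrays. The T and B cell mean lay between 5.42 and 5.71 on ZD arrays and between 5.38 and 7.81 on ZS arrays, and the fibroblast mean between 9.05 and 10.16 on ZD arrays and between 9.68 and 11.46 on ZS arrays. Array 32 held the highest ZS knockout values for macrophage (8.63), T and B cell (7.81) and fibroblast (11.46) markers and the lowest value for 22 of 25 mitotic members, against 41.9% of all genes. With the smooth muscle mean as a covariate Kif11 stood at 1.02 (adjusted p = 0.0863). The part of the other markers in the result was not tested.

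Whether the diet effect differed between knockout and unedited rats was tested by the interaction, for which 8.41% of all genes passed. Genotype and experiment cannot be told apart in this test either, and the labels state pair-feeding for the unedited experiment alone. Ccnd2 was the 1 member that passed, with a change 1.48 higher in knockout rats (SE 0.34, adjusted p = 0.00975) and 1.44 without array 38 (adjusted p = 0.0143, where 8.74% of all genes passed). In ZD knockout rats Ccnd2 measured 10.37, 10.74 and 11.02 (lowest, median and highest), against 10.50, 10.72, 10.23 and 10.52 on ZS knockout arrays, a difference of 0.26 that did not pass. In unedited rats the change was -1.22, as given above. Ccnd1 had the next smallest p of the S-phase members, -0.62 (SE 0.24, adjusted p = 0.109), and Tyms followed at 0.58 (SE 0.30, adjusted p = 0.248). No mitotic member passed in limma, and none had an unadjusted p under 0.05, where 3328 of 14218 genes did. The mitotic median of the interaction was 0.13, or -0.05 without array 38. It was -0.20 without array 15 and 0.40 without array 14, both of the untreated ZD group. Cenpf stood at 0.72 (SE 0.51, adjusted p = 0.435), Kif11 at 0.58 (SE 0.46, adjusted p = 0.492) and Nusap1 at 0.64 (SE 0.57, adjusted p = 0.545). For the interaction 13 of 21 further probe sets of the members had the sign of the one used.

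Levels of the lists are given side by side for the genotypes, without a test. Relative to each array's own median, the S-phase mean was 2.55 in ZD and 2.37 in ZS knockout rats, and 2.37 in ZD and 2.39 in ZS unedited rats. The mitotic mean was 1.75 in ZD and 1.01 in ZS knockout rats, and 1.97 in ZD and 1.46 in ZS unedited rats. Without array 38 the ZD knockout means were 2.41 and 1.54.

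Further genes of the same processes, outside the 50, were read from lists for replication, mitosis and cell cycle inhibition. Of 47 other mitotic genes measured, the cohesin protector Sgo1 rose by 1.02 (SE 0.30, adjusted p = 0.0235) and the phosphatase gene Cdc25b by 0.61 (SE 0.20, adjusted p = 0.0428) between untreated ZD and ZS rats. These are 2 of 47, where 6.96% of all genes rose. Sgo1 lay above the ZS range on every ZD array, as did 5.91% of all genes. Of 34 other replication genes E2f7, a repressor of the E2F family, was the 1 that rose, by 0.79 (adjusted p = 0.0475), and of 16 genes of cell cycle inhibition Ccng1, a p53 target, rose by 0.42 (adjusted p = 0.0184). In knockout rats the centromere histone gene Cenpa rose by 0.44 (SE 0.12, adjusted p = 0.00955), Kif14 by 0.81 and Cdca2 by 1.06, which makes 3 of 47 where 9.47% of all genes rose. The histone chaperone gene Chaf1a rose by 0.58 (SE 0.13, adjusted p = 0.00222), the atypical E2F gene E2f8 by 0.77, the 2 of 34 replication genes that rose, and the inhibitor gene Cdkn2c by 0.29. Without array 38, Cenpa (0.37, adjusted p = 0.0260) and Chaf1a (0.54, adjusted p = 0.00628) still passed, whereas Kif14, Cdca2, E2f8 and Cdkn2c did not. With antimiR against untreated ZD rats no gene of these lists, of 47, 34 and 16 genes, passed in limma. An unadjusted p under 0.05 was found for 4 of their genes after 5 weeks and 3 after 20 weeks. Over all genes it was found for 1021 of 14218 after 5 weeks and 2109 of 14218 after 20 weeks.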

How the data were processed

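Oesophageal epithelium RNA was hybridised to 30 Affymetrix rat arrays. The authors deposited log2 values made with Affymetrix Expression Console and RMA per the submitters' processing notes, with versions not given in the sources used here. Of 31099 probe sets, 20832 name 1 gene, 436 several and 9774 none used here, and 57 are controls. Where several probe sets named a gene, that of highest mean level stood for it, leaving 14218 genes. Groups follow the title prefixes. limma 3.58.1 in R 4.3.3 was fitted to all 30 arrays with 1 coefficient per group, for 8 comparisons, with Benjamini-Hochberg adjustment over 14218 genes and a threshold of 0.05. The script was tested on simulated data. Members and lists were chosen with earlier results of these data known. Per array, Mki67, Cdk1, Pcna, Mcm2 and Ccnd1 were described, with the 3 S-phase and 3 mitotic members of smallest p in each comparison, and up to 3 genes of each further list; other names were chosen after their values were seen. Alternatives changed scaling, probe set choice, the dimmest 30% of genes, array weights, a smooth muscle covariate, the groups in the fit and single arrays.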

Additional observations from a re-analysis of the deposited data

Results flagged for a closer look

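Among 66 group and measure combinations, 10 held an array farther from the rest of its group than Dixon's criterion allows. For a single measure chance marks about 1 in 20 groups. The 11 measures share genes and arrays, so the 10 are not independent and cannot be set against that rate. Of these, 6 were array 38 of the ZD knockout group: its S-phase mean was 9.13, its mitotic mean 8.64, Cdk1 10.27, Pcna 11.89, Mcm2 10.01 and Lig1 8.92, each the highest of its group. Array 32 was the lowest ZS knockout array in the S-phase mean, at 8.10. Mki67 was low on array 18 of the untreated ZS group, at 7.96, and Cdk1 was low on array 3 of the 20-week antimiR group, at 8.30. Lig1 was high on array 9 of the 5-week antimiR group, at 7.94. The diet effect on Ccnd2 differed between knockout and unedited rats by 1.48 in the interaction test, in which genotype and experiment cannot be told apart.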

How the results depend on the processing

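In the unedited experiment ZS rats were pair-fed to ZD rats, but the labels used here do not give which rats formed a pair. No array number is shared between groups, so no paired analysis was possible. No member past the threshold changed direction, but several list medians near 0 changed sign. With the smooth muscle covariate the S-phase median went from 0.02 to -0.27 for diet in unedited rats and from 0.16 to -0.04 in knockout rats. Without array 15 the mitotic median of 20 weeks against untreated ZD went from 0.10 to -0.13. The S-phase median of the interaction went from 0.19 to -0.13 without that array. The counts of members past the threshold moved as follows. For untreated ZD against ZS rats, 1 mitotic member passed with array weights (Mad2l1 at 1.09), 2 S-phase members (Ccnd2 and Ccnd1) with the mean of all probe sets and 0 with the smooth muscle covariate; leaving out single arrays gave 1 to 2 S-phase and 0 to 7 mitotic members. For 20 weeks of antimiR against untreated ZD rats, 1 S-phase member passed with array weights (Ccnd1 at -0.72), and 0 to 1 with single arrays left out. Against ZS rats the 5-week group had 0 S-phase members with the covariate and 1 to 2 with arrays left out, and the 20-week group 2 with array weights, 0 with the covariate, 0 to 1 with arrays left out, and, with only the groups compared, 1 mitotic member (Ttk) and Lig1 in place of Ccnd2. In knockout rats 1 S-phase and 2 mitotic members passed with quantile normalization and with median centring, 0 mitotic with the mean of all probe sets or the covariate and 3 with only the groups compared; arrays left out gave 0 to 1 of each kind. For the interaction 2 S-phase members passed with array weights and with the mean of all probe sets, Ccnd2 among them under every alternative run. Over all genes the diet comparison called 1977, against 132 with the covariate and 1193 without array 14. The 5-week comparison with untreated ZD called 0, against 2 with quantile normalization, 1 with median centring and 0 to 4 with arrays left out. The 20-week comparison with untreated ZD called 92, against 561 with array weights, 28 with the covariate, 21 with only the groups compared and 9 to 379 with arrays left out. The comparison of 20 with 5 weeks called 3, against 22 with array weights, 7 with median centring or without the dimmest genes, and 0 to 20 with arrays left out. Against ZS, 5 weeks called 1291, against 2131 with array weights, 279 with the covariate and 771 to 1547 with arrays left out, and 20 weeks called 516, against 120 with the covariate, 140 with only the groups compared and 166 to 690 with arrays left out. The knockout comparison called 3049, against 1484 with the covariate and 1566 without array 32, and the interaction 1196, against 616 without array 32. The cause of these shifts was not tested.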
